A study of Rattus norvegicus with 30 samples.

Results

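Chemokines are small secreted or membrane-bound proteins that attract leukocytes, and the transcripts described here are the chemokine ligands and the chemokine receptors measured in rat plantaris tendons after tenotomy and repair. The members were every gene whose symbol began with Ccl, Cxcl, Cx3cl, Xcl, Ccr, Cxcr, Cx3cr, Xcr or Ackr followed by a number. This gave 42 of the 13124 genes in the count table as deposited, 28 ligands and 14 receptors, chosen within that table by symbol alone. Of these, 38 members (26 ligands and 12 receptors) were tested, because Ccl19, Ccl27, Ccr6 and Cxcr6 stayed under a mean of 3 counts scaled to 1e+06 per library (CPM) in every group. Other chemokine genes of the rat, among them Ccr2 and Ccl8, were not analysed here.

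The study asked whether GSK2894631A, an inhibitor of hematopoietic prostaglandin D synthase, changed the repair of a cut tendon. All rats were 3-month-old male Sprague Dawley rats. In 6 groups both plantaris tendons were cut and repaired at once with a suture, while the uncut Achilles tendon carried load in their place. The repaired groups then received the compound by oral gavage 2 times a day at 0, 2 or 6 mg/kg, with vehicle alone at 0 mg/kg, and were studied at 7 days (7D) or 21 days (21D). Control rats had neither surgery nor compound. RNA came from the right tendon of each rat, cut with the aim of leaving out muscle and bone. It was sequenced in 30 rats, of which 3 were controls. The 7D groups held 5, 4 and 3 rats at 0, 2 and 6 mg/kg, and each 21D group held 5. The p-values measure the spread between these tendons, and in bulk tissue fewer cells of a type and less RNA per cell cannot be told apart.

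Chemokines fall into the CC, CXC, CX3C and XC families by the spacing of their first cysteines, and their receptors are G protein-coupled receptors on the responding leukocytes. CXC ligands with the ELR motif act on Cxcr2 and attract neutrophils, the ligands of Cxcr3 attract T cells, and many CC ligands attract monocytes, eosinophils or dendritic cells. Atypical receptors (Ackr) bind chemokines without G protein signalling and remove or redistribute them. In an injured tendon, incoming leukocytes and resident fibroblasts are both known sources of chemokines. Many members shared a chromosome by the study's annotation, with 8 CXC ligands on chromosome 14, 10 ligands and Ccr7 on chromosome 10 and 8 receptors on chromosome 8.

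The libraries held 12405741 to 49909374 counts, so that 3 counts, used as the floor of detection, came to 0.0562 to 0.245 CPM after scaling by trimmed mean of M values (TMM). Of 20 skeletal muscle marker genes listed, 16 were in the table, and their share of all counts is called the muscle share below. It was 16.6 to 24.2% in controls, 0.169 to 1.11% at 7D 0 mg/kg, 0.0129 to 0.0160% at 7D 2 and 6 mg/kg and 0.0675 to 8.39% at 21D. Other muscle transcripts were not counted in it. The share of every repaired tendon was below that of every control tendon. Muscle share and repair therefore cannot be told apart in the comparisons with control tendons. The control tendons had TMM factors of 0.599 to 0.788 and the repaired tendons of 0.95 to 1.10. All 9 tendon marker genes, among them Tnmd and Scx, were in the table, and they summed to 9267 to 38000 CPM in controls and 24070 to 53500 CPM at 7D 0 mg/kg. Of these 9, 5 were lower at each 7D dose and 1, 0 and 1 higher in order of dose, while at 21D 4, 5 and 2 were lower and 1 was higher at each dose. Their part in the results on the members was not tested. Some tendons stood apart for the members. Of the 38 members tested, 21D 0 mg/kg replicate 2 held the highest value of its group in 20 and 21D 6 mg/kg replicate 5 in 20, and their muscle shares were 0.0675% and 0.340%. Replicate 3 of 21D 6 mg/kg, with a share of 0.308%, was highest in 9, and a link with muscle share was not tested. In groups of 3 tendons, control replicate 3 and 7D 6 mg/kg replicate 1 were each highest in 18, and control replicate 4 was lowest in 18.

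Levels below are TMM-scaled CPM for each tendon, given from the lowest to the highest within a group, and are compared between groups but not between genes. Fold changes are log2 values ± SE from edgeR's quasi-likelihood fit over all 30 tendons, and each adjusted p is that test's p with Benjamini-Hochberg adjustment over all 12558 genes tested. Against control tendons a gene was called when its adjusted p was under 0.05 and it differed by 1.5-fold or more, and all 6 of these comparisons shared the same 3 control tendons.

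Most ligands were higher in repaired than in control tendons, except at 21D 6 mg/kg with 13 of 26, and none was lower. At 7D 0 mg/kg 23 of the 26 ligands were higher, at 7D 2 mg/kg 20 and at 7D 6 mg/kg 19. At 21D the numbers were 16, 14 and 13 at 0, 2 and 6 mg/kg. Over all genes tested, 29% were higher and 27.6% lower at 7D 0 mg/kg, 29.1% and 26.5% at 7D 2 mg/kg, and 28.3% and 27.4% at 7D 6 mg/kg. The corresponding shares at 21D were 25.4% and 25.2% at 0 mg/kg, 26.7% and 27.3% at 2 mg/kg, followed by 23.9% and 24.6% with 6 mg/kg. The median log2 fold change of the ligands was 3.03, 2.50 and 2.55 at 7D and 2.10, 1.64 and 1.39 at 21D for 0, 2 and 6 mg/kg, beside medians of 0.01 to 0.06 for all genes. Cxcl6, Cxcl3, Ccl20 and Ccl22 had at most 3 counts in any control tendon, and with these at the bound that the floor allows the median was 1.48 at 21D 2 mg/kg and did not move in the other 5 comparisons.

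The receptors called at 7D were higher, except for Ackr2, which was called lower at 0 and 6 mg/kg. Of the 12 tested, 6 were higher and 1 was lower at 7D 0 mg/kg, 7 were higher at 7D 2 mg/kg, and 7 were higher and 1 was lower at 7D 6 mg/kg. At 21D 7 were higher at each dose and none was lower. Of all genes, 28.3 to 29.1% were higher and 26.5 to 27.6% lower at 7D. The shares at 21D were 23.9 to 26.7% and 24.6 to 27.3%. The median log2 fold changes of the receptors were 1.53, 1.42 and 1.93 at 7D and 1.35, 1.41 and 1.21 at 21D.

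Many members were near the detection floor in control tendons, and such genes could pass the filter on low values only where a repaired group was high. Among the 11 ligands with a control mean of at least 3 CPM, 8 were higher at 7D 0 mg/kg, beside 23.3% of all genes with such a mean. All 15 ligands under that mean were higher, beside 67.1% of all genes under it. At 21D 0 mg/kg the counts were 6 of 11 beside 20.1% and 10 of 15 beside 60.5%. With 2 mg/kg at 21D they were 6 of 11 beside 21.9% and 8 of 15 beside 58.7%. With 6 mg/kg at 21D they were 5 of 11 beside 19.4% and 8 of 15 beside 54.4%. At 21D 2 and 6 mg/kg the ligands under that mean were thus called higher no more often than all such genes. For receptors at 7D 0 mg/kg, 2 of 6 with a control mean of at least 3 CPM were higher and 1 was lower, beside 23.3% of all such genes higher. Under it 4 of 6 were higher, beside 67.1%. At each 21D dose 3 of 6 and 4 of 6 were higher, beside 19.4 to 21.9% and 54.4 to 60.5%. In these comparisons receptors under that mean were thus called higher about as often as all such genes.

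Across the 6 comparisons with control tendons, 12 ligands were higher in each: Ccl2, Ccl3, Ccl5, Ccl6, Ccl7, Ccl9, Ccl17, Ccl22, Cxcl3, Cxcl6, Cxcl12 and Cxcl16. For 9 of them, all but Ccl5, Ccl6 and Cxcl12, each call also held when any single tendon of the groups compared was left out. Among receptors, Ccr7, Cx3cr1, Cxcr3, Cxcr4 and Xcr1 were higher in all 6 comparisons, and Cx3cr1, Cxcr3 and Xcr1 held without each tendon. Ccl21, Cx3cl1 and Cxcl9 among ligands and Ackr4, Ccr1 and Cxcr5 among receptors were called in none of the 6. Scaling by library size alone raised the median log2 fold change of all genes from 0.05 to 0.64 at 7D 0 mg/kg and from 0.03 to 0.59 at 21D 0 mg/kg, and the share of higher genes among those called from 51.2% to 76.7% and from 50.2% to 79.2%. In the other 4 comparisons that share moved from 49.3 to 52.3% up to 75.2 to 77.4%. With it 24 ligands and 10 receptors were called at 7D 0 mg/kg. Leaving out 1 tendon moved the fold by over 1.5 times for 17 of the 30 members called at 7D 0 mg/kg and for 16 of the 23 at 21D 0 mg/kg.

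**Figure D1:**
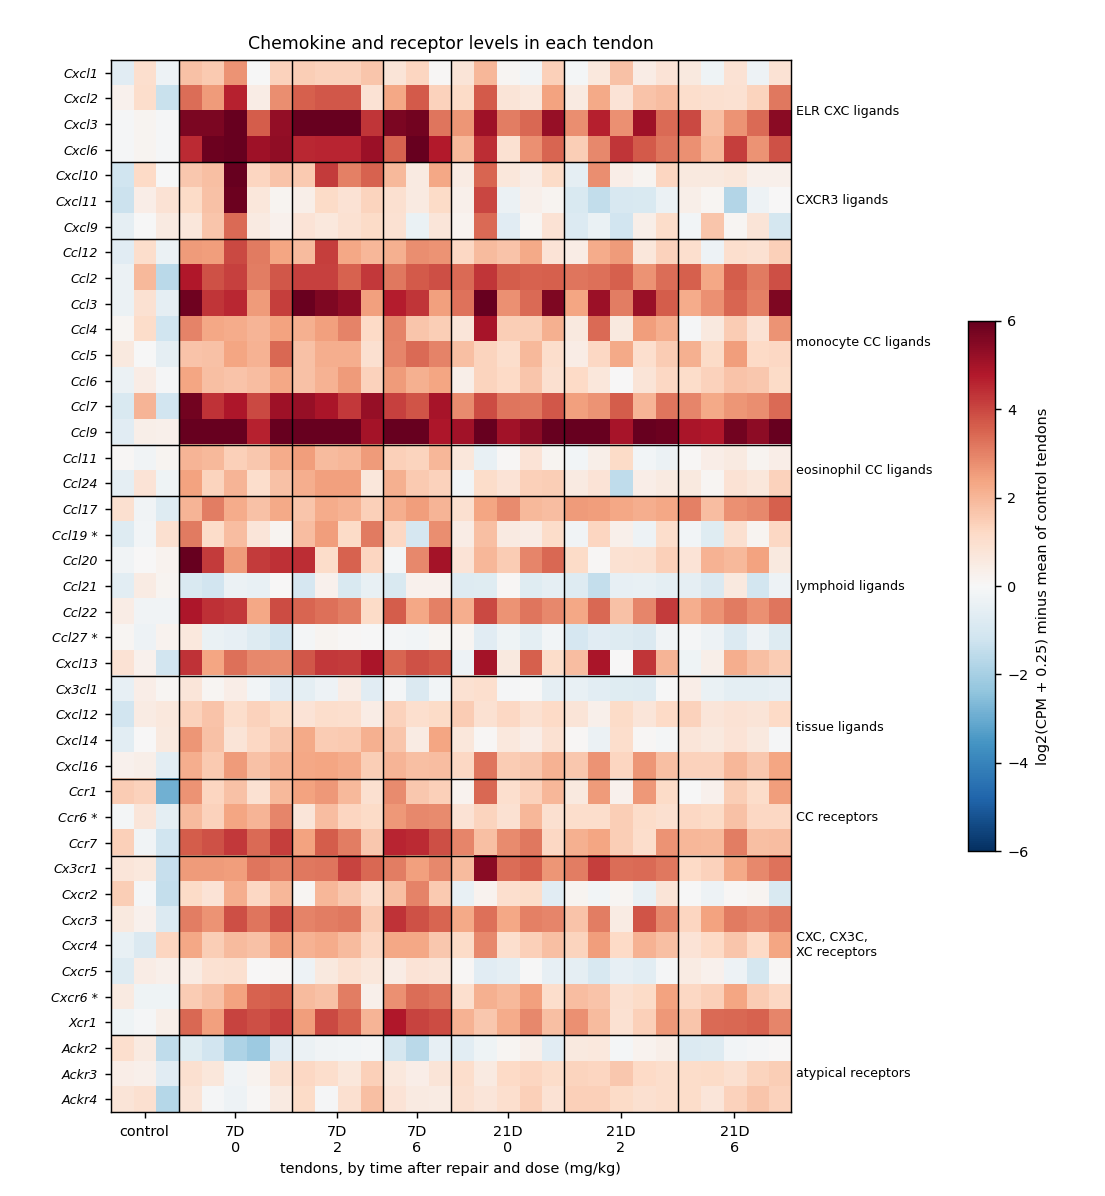
Levels of 41 chemokine ligands and receptors in the 30 tendons, as a colour scale of log2(CPM + 0.25) minus the mean of the 3 control tendons, with genes down the side by role, tendons across by group and an asterisk on the 4 genes not tested. Most ligands are red (above the controls) in repaired tendons, and single tendons stand out for Cxcl10 and Cxcl11.

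The 250 bases before the start of the gene were read for the members in the RefSeq promoter table (GRCr8 build, not the build the counts were made on), which held 33 of the 42 members, 22 ligands and 11 receptors. The 10-base consensus bound by NF-kB, the transcription factor known to switch on many chemokine genes in inflammation, matched on either strand in 8 ligands (36.4%) and in no receptor, beside 6.33% of 33469 promoters. All 8 were higher at 7D 0 mg/kg, as were 15 of the other 18 ligands tested. The interferon response element GAAANNGAAA matched in Cxcl10 and Ccl19, beside 3.41% of all promoters. The 100 bases from 140 to 41 before the start are shown for these 8 because their position and letters differ, with the NF-kB matches in capitals. Overlapping matches are run together, and in Cxcl1, Cxcl6 and Cxcl10 they lie on opposite strands. In Cxcl2 both overlapping matches fit the forward strand, and the later one also fits the reverse strand. Cxcl10 held a further match outside the stretch. A match is a description of the letters and not evidence of binding.
Cxcl1: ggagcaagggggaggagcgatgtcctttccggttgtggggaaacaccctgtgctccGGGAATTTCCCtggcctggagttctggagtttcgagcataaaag
Cxcl2: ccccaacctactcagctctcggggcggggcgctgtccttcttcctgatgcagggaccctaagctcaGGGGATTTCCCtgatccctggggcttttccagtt
Cxcl6: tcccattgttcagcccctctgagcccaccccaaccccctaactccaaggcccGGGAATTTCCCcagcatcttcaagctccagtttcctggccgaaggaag
Cxcl10: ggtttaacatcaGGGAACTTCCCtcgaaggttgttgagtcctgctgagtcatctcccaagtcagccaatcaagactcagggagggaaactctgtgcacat
Cxcl11: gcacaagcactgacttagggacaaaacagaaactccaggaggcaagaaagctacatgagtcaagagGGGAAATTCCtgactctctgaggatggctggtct
Ccl7: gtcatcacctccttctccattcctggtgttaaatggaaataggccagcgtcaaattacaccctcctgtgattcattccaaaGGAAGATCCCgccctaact
Ccl9: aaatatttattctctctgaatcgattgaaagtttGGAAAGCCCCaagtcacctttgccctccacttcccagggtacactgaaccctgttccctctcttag
Ccl20: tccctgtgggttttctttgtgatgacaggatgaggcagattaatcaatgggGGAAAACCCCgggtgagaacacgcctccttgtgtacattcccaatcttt
These stretches lay at chr14:17479362-17479461 (- strand), chr14:17467296-17467395 (- strand), chr14:17596458-17596557 (- strand), chr14:15988926-15989025 (+ strand), chr14:15973588-15973687 (+ strand), chr10:67513955-67514054 (+ strand), chr10:68868918-68869017 (- strand) and chr9:91837019-91837118 (+ strand).

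Of the ligands that attract neutrophils, Cxcl3 and Cxcl6 were at or near 0 counts in control tendons and were found in every repaired tendon. Cxcl1, Cxcl2, Cxcl3 and Cxcl6 were tested. All 4 were higher at 7D 0 mg/kg, 3 at each of the other 7D doses, and Cxcl3 and Cxcl6 alone at 21D. Cxcl1, Cxcl2 and Cxcl3 are close paralogs, so that reads may be split among them. For Cxcl6, a ligand of Cxcr2, control tendons held 0, 0 and 0.0401 CPM and 7D 0 mg/kg tendons 5.57, 8.61, 10.4, 15.1 and 83.3 CPM. It reached 5.86, 5.97, 6.01 and 8.99 CPM at 7D 2 mg/kg and 2.79, 6.75 and 18.2 CPM at 7D 6 mg/kg. Replicate 3 was far above the other 7D 0 mg/kg tendons, but no repaired tendon overlapped the controls. At 21D the values were 0.25, 0.764, 1.53, 2.73 and 5.38 CPM at 0 mg/kg, 0.477, 1.67, 2.16, 3.16 and 4.93 CPM at 2 mg/kg and 0.783, 1.45, 1.52, 3.50 and 4.48 CPM at 6 mg/kg. Set against the floor of 3 counts in each control library, the group means stood at least 146-fold, 39.7-fold and 54.7-fold higher at 7D and at least 12.6-fold, 14.7-fold and 13.9-fold higher at 21D, in order of dose. Single tendons moved 3 of these bounds by over 1.5 times, to 58.7-fold at 7D 0 mg/kg without replicate 3, 28.2-fold at 7D 6 mg/kg without replicate 4 and 7.81-fold at 21D 0 mg/kg without replicate 2. The adjusted p ran from 9.57e-06 at 7D 0 mg/kg to 0.00228 at 21D 0 mg/kg.

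Cxcl3, which also acts on Cxcr2, showed the same separation. Its control values were 0, 0 and 0.0401 CPM, and its 7D 0 mg/kg values 2.96, 10.1, 13.0, 13.1 and 35.1 CPM. Tendons at 7D held 4.88, 16.4, 22.2 and 30.7 CPM with 2 mg/kg and 2.16, 12.8 and 14.1 CPM with 6 mg/kg. Every 7D tendon was above every control tendon, and this was so at 21D too. There the values were 1.41, 1.93, 2.58, 8.65 and 9.49 CPM with 0 mg/kg, 1.5, 1.54, 2.51, 6.35 and 8.55 CPM with 2 mg/kg and 0.667, 1.45, 2.51, 3.90 and 11.1 CPM with 6 mg/kg. The means stood at least 87.7-fold, 109.7-fold and 57.3-fold higher at 7D and at least 28.5-fold, 24.2-fold and 23.2-fold higher at 21D, with adjusted p from 2.24e-05 to 0.000689. The bound fell to 57.8-fold at 7D 0 mg/kg without replicate 3 and to 12.6-fold at 21D 6 mg/kg without replicate 5. Cxcl2 was higher by 3.37 ± 1.09 at 7D 0 mg/kg (adjusted p = 0.00809), with values of 0 to 1.08 CPM in control and 0.609 to 15.5 CPM in repaired tendons. At 7D 0 mg/kg its change was 2.65 without replicate 3 and 4.34 without control replicate 3. At 7D 6 mg/kg the Cxcl2 call was lost without control replicate 2 (2.65, adjusted p = 0.0834), control replicate 4 (2.26, adjusted p = 0.111) or 7D 6 mg/kg replicate 4 (1.90, adjusted p = 0.159). Cxcl1 was higher by 1.67 ± 0.63 at 7D 0 mg/kg (adjusted p = 0.0208), a call lost without control replicate 2 (1.25, adjusted p = 0.118), control replicate 4 (1.40, adjusted p = 0.0932) or 7D 0 mg/kg replicate 3 (1.24, adjusted p = 0.0735).

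The neutrophil markers of the list that were in the table were S100a8, S100a9 and Csf3r. They summed to 4.49 to 13.1 CPM in control tendons, 51.6 to 104.4 CPM at 7D 0 mg/kg, 9.57 to 87.6 CPM at 7D 2 mg/kg and 35.6 to 93.6 CPM at 7D 6 mg/kg, and all 3 were higher at each 7D dose. At 21D they summed to 6.36 to 31.2 CPM and none was called, whereas Cxcl3 and Cxcl6 were called at each 21D dose. The other 6 genes of that list were not analysed here, and the part of neutrophils in the ligand levels was not tested.

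Ligands of Cxcr3, which interferon is known to induce, rested on few tendons. For Cxcl10 the control values were 0.378, 1.14 and 3.01 CPM and the 7D 0 mg/kg values 3.19, 4.14, 4.39, 4.74 and 124 CPM. At 7D the values were 4.02, 11.4, 16.2 and 25.5 CPM with 2 mg/kg and 1.82, 5.15 and 6.81 CPM with 6 mg/kg. Replicate 3 alone held the high value at 7D 0 mg/kg, although the lowest tendon of that group was also above the highest control. The 21D values were 1.71, 1.77, 2.04, 2.87 and 15.6 CPM at 0 mg/kg, 0.730, 1.33, 1.62, 3.24 and 9.43 CPM at 2 mg/kg and 1.47, 1.52, 1.86, 1.86 and 1.99 CPM at 6 mg/kg, all overlapping the controls. The fold change was 4.18 ± 1.30 at 7D 0 mg/kg (adjusted p = 0.00608), 1.42 (adjusted p = 0.143) without replicate 3 and 5.31 without control replicate 3. It was 3.20 ± 1.27 at 7D 2 mg/kg (adjusted p = 0.0276), where leaving out control replicate 2, control replicate 4 or 7D 2 mg/kg replicate 3 ended the call (adjusted p = 0.104, 0.0825 and 0.0637), and 1.59 ± 1.26 at 7D 6 mg/kg (adjusted p = 0.267).

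Cxcl11, a further ligand of Cxcr3, was as uneven. Control tendons held 0.0944, 0.882 and 1.31 CPM, and 7D 0 mg/kg tendons 0.695, 1.10, 1.62, 2.63 and 49.9 CPM. The other 7D tendons held 0.847, 1.31, 1.65 and 1.86 CPM at 2 mg/kg and 0.984, 1.40 and 1.64 CPM at 6 mg/kg. Apart from replicate 3 of 7D 0 mg/kg, the groups overlapped the controls. At 21D Cxcl11 was at 0.416, 0.70, 0.800, 0.812 and 13.4 CPM with 0 mg/kg, 0.0575, 0.179, 0.197, 0.206 and 0.418 CPM with 2 mg/kg and 0, 0.437, 0.601, 0.667 and 0.847 CPM with 6 mg/kg. The only call was at 7D 0 mg/kg, 3.93 ± 1.42 (adjusted p = 0.0163). It fell to 1.04 (adjusted p = 0.375) without replicate 3, and was also lost without control replicate 2 (3.31, adjusted p = 0.0717) and in a fit of only the groups compared (adjusted p = 0.0880). At 21D 0 mg/kg the change was 2.13 with replicate 2 and -0.11 without it. Cxcl9 ranged over 5.52 to 11.9 CPM in control and 9.68 to 87.2 CPM in 7D 0 mg/kg tendons, and was not called (1.82 ± 0.86, adjusted p = 0.0598).

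**Figure D2:**
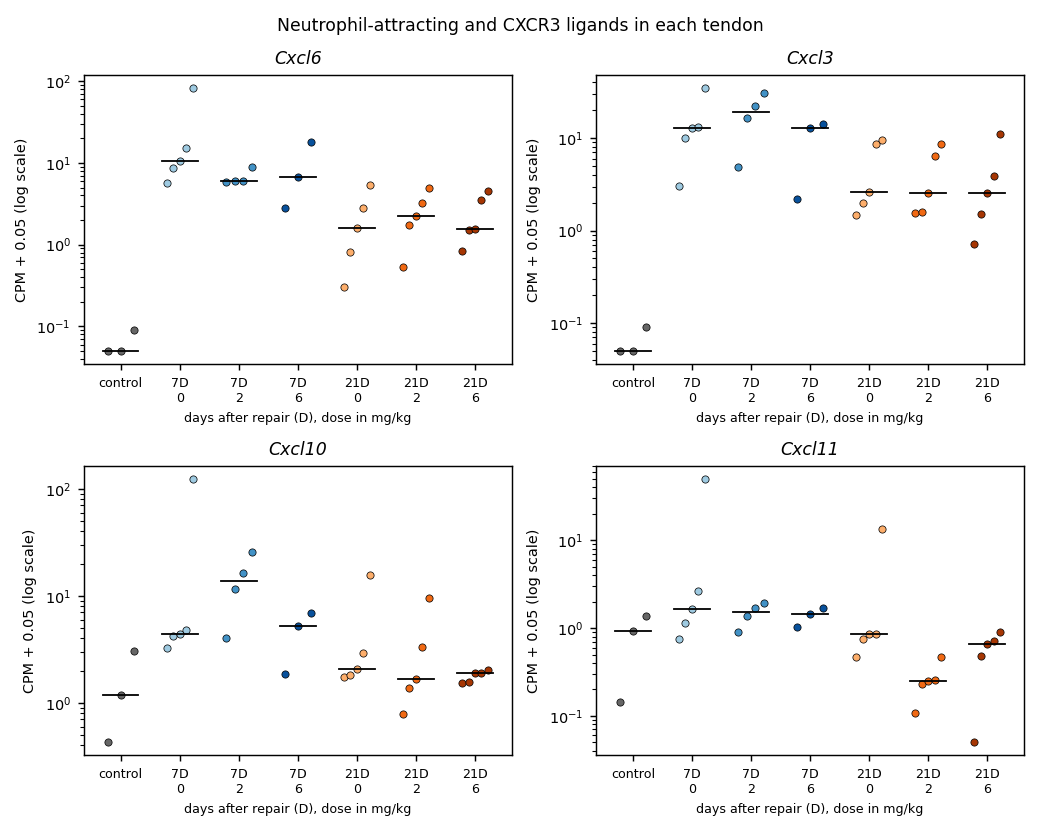
Levels of Cxcl6, Cxcl3, Cxcl10 and Cxcl11 in each tendon by group, as CPM + 0.05 on a log axis, with a point for each tendon and a bar at the group's median. Cxcl3 and Cxcl6 separate all repaired tendons from the controls, while in 7D 0 mg/kg tendons Cxcl10 and Cxcl11 each have a single high point, at 123.6 and 49.9 CPM.

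CC ligands that attract monocytes and macrophages formed the largest group, and the 8 tested were all higher at 7D 0 mg/kg and at 21D 0 mg/kg. At 7D each other dose had 7 of the 8 called. At 21D there were 7 with 2 mg/kg and 6 with 6 mg/kg. Ccl2, Ccl7 and Ccl12 are close paralogs, as are Ccl3 and Ccl4 and as are Ccl6 and Ccl9, and the handling of reads shared between paralogs was not given in the sources used here. The fold changes at 7D 0 mg/kg ran from 2.01 ± 0.30 for Ccl6 to 7.50 ± 1.52 for Ccl9.

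Ccl9, a ligand of Ccr1 made by myeloid cells, had the largest change of this group. Controls held 0.425, 1.06 and 1.12 CPM and 7D 0 mg/kg tendons 25.6, 117, 118, 125 and 397 CPM. With compound at 7D it was at 33.5, 167, 246 and 416 CPM for 2 mg/kg and 30.3, 77.9 and 173 CPM for 6 mg/kg. No repaired tendon overlapped the controls, and the tendons within a group differed widely. At 21D it was at 34.6, 34.8, 44.8, 284 and 592 CPM for 0 mg/kg, 32.8, 63.4, 66.1, 258 and 298 CPM for 2 mg/kg and 29.4, 31.8, 44.4, 58.2 and 302 CPM for 6 mg/kg. The fold change was 7.50 ± 1.52 at 7D 0 mg/kg (adjusted p = 0.000111) and 7.84 ± 1.54 at 21D 0 mg/kg (adjusted p = 0.000104). It was 6.81 at 7D 0 mg/kg without replicate 1 and 6.85 at 21D 0 mg/kg without replicate 2.

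Ccl3, which acts on Ccr1, was at 0.163, 0.236 and 0.882 CPM in controls and 3.33, 10.7, 11.6, 13.9 and 34.9 CPM at 7D 0 mg/kg. Values at 7D were 3.15, 24.3, 29.7 and 37.3 CPM for 2 mg/kg and 3.10, 11.6 and 15.8 CPM for 6 mg/kg. All repaired tendons lay above all controls here and at 21D. The 21D groups held 3.81, 5.57, 6.23, 29.7 and 61.5 CPM for 0 mg/kg, 2.92, 4.85, 7.39, 20.9 and 21.9 CPM for 2 mg/kg and 2.58, 3.86, 4.70, 6.59 and 29.3 CPM for 6 mg/kg. The fold change was 4.97 ± 1.31 at 7D 0 mg/kg (adjusted p = 0.00156) and 5.49 ± 1.33 at 21D 0 mg/kg (adjusted p = 0.000880). It was 4.38 at 7D without replicate 1 and 4.57 at 21D without replicate 2, and 6.16 and 6.67 without control replicate 3. Ccl4, its neighbour on chromosome 10, was higher by 2.50 ± 1.06 at 7D 0 mg/kg (adjusted p = 0.0376), a call lost without control replicate 2 (adjusted p = 0.109), control replicate 4 (0.133) or 7D 0 mg/kg replicate 1 (0.0619). At 21D 0 mg/kg Ccl4 was 3.20 ± 1.09 higher (adjusted p = 0.0122), but 1.51 (adjusted p = 0.128) without replicate 2 and 2.67 (adjusted p = 0.0571) without control replicate 4.

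Ccl7, which attracts monocytes through Ccr2, was at 1.96, 2.41 and 20.4 CPM in controls and rose to 77.1, 98.4, 141, 171 and 273 CPM at 7D 0 mg/kg. Tendons given compound for 7 days had 93.6, 149, 186 and 186 CPM at 2 mg/kg and 67.9, 85.1 and 154 CPM at 6 mg/kg. The 7D groups overlapped each other and none overlapped the controls. At 21D the values were 35.2, 43.5, 45.3, 64.2 and 74.0 CPM at 0 mg/kg, 20.0, 27.1, 31.7, 45.9 and 61.5 CPM at 2 mg/kg and 23.4, 30.9, 34.5, 38.1 and 51.3 CPM at 6 mg/kg, mostly between the controls and the 7D tendons, with 1 tendon at 2 mg/kg under the highest control. The fold change was 4.17 ± 0.64 at 7D 0 mg/kg (adjusted p = 3.21e-06) and 2.63 ± 0.59 at 21D 0 mg/kg (adjusted p = 0.000423). For Ccl2, the main monocyte attractant of this family, the change was 3.28 ± 0.55 at 7D 0 mg/kg and 2.99 ± 0.54 at 21D 0 mg/kg (adjusted p = 1.01e-05 and 3.74e-05), and its lowest repaired tendon in any group, at 53.4 CPM, was above its highest control, at 40.9 CPM. That control was replicate 3, also the highest for Ccl7, and without it the changes at 7D and 21D 0 mg/kg were 6.13 and 4.60 for Ccl7 and 4.91 and 4.62 for Ccl2.

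Ccl6, a CC ligand of rodents, was well expressed in uninjured tendons at 28.8, 34.2 and 48.9 CPM and rose to 121, 126, 131, 185 and 186 CPM at 7D 0 mg/kg. At 7D the compound groups held 94.3, 123, 155 and 212 CPM at 2 mg/kg and 162, 189.8 and 214 CPM at 6 mg/kg. Every 7D tendon was above every control tendon. At 21D it held 47.2, 70.9, 83.2, 91.5 and 116 CPM at 0 mg/kg, 37.3, 57.5, 62.4, 84.3 and 85.0 CPM at 2 mg/kg and 77.6, 82.0, 95, 113 and 119 CPM at 6 mg/kg, with an overlap with the controls at 0 and 2 mg/kg. The change was 2.01 ± 0.30 at 7D 0 mg/kg (adjusted p = 2.43e-06), 1.13 ± 0.29 at 21D 0 mg/kg (adjusted p = 0.00147) and 0.81 ± 0.29 at 21D 2 mg/kg (adjusted p = 0.0150), the last lost without control replicate 2 (adjusted p = 0.125) or 4 (0.0775). Ccl5, which attracts T cells and monocytes, was 2.51 ± 0.50 higher at 7D 0 mg/kg (adjusted p = 8.79e-05) and 3.21 ± 0.54 higher at 7D 6 mg/kg (adjusted p = 1.25e-05), and its calls at 21D 0 and 2 mg/kg were lost without control replicate 4 (adjusted p = 0.0545 and 0.0652). Ccl12 was 3.24 ± 0.76 higher at 7D 0 mg/kg (adjusted p = 0.000541) and was not called at 21D 6 mg/kg (0.86 ± 0.73, adjusted p = 0.309). Without control replicate 3 its change at 7D 0 mg/kg was 4.74. Its 21D calls at 0 and 2 mg/kg were lost without control replicate 2 (adjusted p = 0.172 and 0.170), and without control replicate 4 (0.137 and 0.132). The first was also lost without 21D 0 mg/kg replicate 2 (0.0558) or 4 (0.0754), and the second without 21D 2 mg/kg replicate 2 (0.0669) or 3 (0.0934).

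The monocyte and macrophage markers, 9 genes that include Cd68 and Csf1r, summed to 265.7 to 1443 CPM in control tendons, 1976 to 5197 CPM at 7D and 1287 to 7962 CPM at 21D. Of the 9, 7, 8 and 8 were higher at 7D and 6, 6 and 4 at 21D with 0, 2 and 6 mg/kg. Their part in the levels of the CC ligands was not tested.

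Both eosinophil ligands tested were higher at 7D with every dose and neither was called at 21D. For Ccl11 (eotaxin), controls held 0.642, 0.849 and 0.899 CPM and 7D 0 mg/kg tendons 2.52, 2.99, 3.76, 4.06 and 4.69 CPM. The 7D values were 3.65, 3.93, 5.71 and 5.85 CPM at 2 mg/kg and 2.35, 2.58 and 3.95 CPM at 6 mg/kg. All 7D tendons were above all controls. By 21D the values, 0.504, 0.832, 0.911, 1.43 and 1.60 CPM at 0 mg/kg, 0.558, 0.674, 0.686, 1.06 and 2.03 CPM at 2 mg/kg and 0.847, 0.921, 1.10, 1.13 and 1.28 CPM at 6 mg/kg, overlapped the controls and lay below every 7D tendon. Ccl11 was 2.19 ± 0.41 higher at 7D 0 mg/kg (adjusted p = 3.98e-05) and 0.42 ± 0.39 at 21D 0 mg/kg (adjusted p = 0.354).

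Ccl24 (eotaxin-2), a ligand of Ccr3 like Ccl11, was at 12.3, 15.2 and 32.3 CPM in controls and 38.2, 45.8, 61.6, 76.5 and 99.6 CPM at 7D 0 mg/kg. Its 7D values were 29.6, 84.3, 101 and 103 CPM at 2 mg/kg and 48.3, 54.2 and 81.5 CPM at 6 mg/kg. A single 2 mg/kg tendon fell within the control range at 7D. At 21D the values were 16.2, 32.4, 39.1, 49.7 and 50.6 CPM at 0 mg/kg, 6.22, 24.4, 26.3, 26.8 and 32.5 CPM at 2 mg/kg and 19.8, 27.6, 29.0, 33.9 and 48.1 CPM at 6 mg/kg. The change was 1.69 ± 0.48, 1.99 ± 0.50 and 1.62 ± 0.52 at 7D in order of dose (adjusted p = 0.00323, 0.00115 and 0.00780), the last lost without control replicate 2 (1.31, adjusted p = 0.0505). At 21D 0 mg/kg it was 0.91 ± 0.47 (adjusted p = 0.0892).

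Of the 5 lymphoid and dendritic cell ligands tested, 4 were higher at every 7D dose and Ccl21 was called in no comparison. Ccl22, which attracts T cells through Ccr4, was at 0, 0 and 0.142 CPM in controls and 1.22, 4.12, 5.18, 5.78 and 8.18 CPM at 7D 0 mg/kg. It was at 0.385, 2.19, 2.66 and 3.02 CPM at 7D 2 mg/kg and 1.21, 2.10 and 3.31 CPM at 7D 6 mg/kg. No repaired tendon overlapped the controls at either time. The 21D values were 1.08, 1.60, 1.89, 2.44 and 4.25 CPM at 0 mg/kg, 0.748, 1.18, 1.97, 2.93 and 5.06 CPM at 2 mg/kg and 1.06, 1.62, 1.68, 2.24 and 2.41 CPM at 6 mg/kg. Against the floor, means stood at least 29.0-fold, 12.2-fold and 13.1-fold higher at 7D and at least 13.3-fold, 14.1-fold and 10.7-fold higher at 21D, with adjusted p from 4.04e-06 to 0.000137. Ccl17, the other ligand of Ccr4, was 2.93 ± 0.61 higher at 7D 0 mg/kg and 2.66 ± 0.61 higher at 21D 0 mg/kg (adjusted p = 0.000142 and 0.000490), or 4.51 and 4.24 without control replicate 2.

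Ccl20, the ligand of Ccr6, was at 0, 0.0401 and 0.0817 CPM in controls and 1.43, 5.04, 5.07, 5.81 and 20.6 CPM at 7D 0 mg/kg. The other 7D groups held 0.365, 0.450, 3.11 and 5.97 CPM at 2 mg/kg and 0.0187, 1.89 and 8.97 CPM at 6 mg/kg. Replicate 1 held the highest 7D 0 mg/kg value, and 1 tendon at 7D 6 mg/kg was within the control range. The 21D values, 0.263, 0.582, 0.881, 1.98 and 2.94 CPM at 0 mg/kg, 0.0575, 0.299, 0.320, 0.393 and 0.523 CPM at 2 mg/kg and 0.177, 0.254, 0.870, 0.957 and 1.31 CPM at 6 mg/kg, were nearer the floor. Means stood at least 44.9-fold, 14.6-fold and 21.5-fold higher at 7D (adjusted p = 0.000457, 0.00446 and 0.00252). Without the highest tendon of each group (replicate 1, replicate 2 and replicate 5) these bounds were 25.7-fold, 7.75-fold and 5.66-fold. At 21D it was called at 0 mg/kg (at least 7.87-fold, adjusted p = 0.0148, and 0.0602 without control replicate 2) and 6 mg/kg (at least 4.23-fold, adjusted p = 0.0453, lost without any of the 3 control tendons or without repaired replicate 2, 3 or 4, at adjusted p of 0.0611 to 0.135). It was not called at 21D 2 mg/kg (adjusted p = 0.164).

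Cxcl13, the B cell attractant that acts on Cxcr5, was 3.12 ± 1.09, 4.15 ± 1.16 and 3.47 ± 1.16 higher at 7D with 0, 2 and 6 mg/kg (adjusted p = 0.0130, 0.00282 and 0.0103). The first call was lost without control replicate 4 (2.70, adjusted p = 0.0615). At 21D 0 mg/kg its tendons ranged over 3.82 to 159 CPM, beside 2.04 to 8.92 CPM in controls, and the call (3.07 ± 1.09, adjusted p = 0.0155) was lost without replicate 2 (1.82, adjusted p = 0.0941) or control replicate 4 (adjusted p = 0.0725). Ccl21, which guides dendritic cells into lymphatic vessels through Ccr7, had values of 228 to 487 CPM in controls and 157 to 356 CPM at 7D 0 mg/kg, and fold changes of -0.78 to -0.10 over the 6 comparisons. At 21D 2 mg/kg (adjusted p = 0.0566) it was called lower with relative log expression (RLE) scaling (-0.81, adjusted p = 0.0472), with DESeq2 (adjusted p = 0.0346) and without control replicate 2 (adjusted p = 0.0146). Ccl19 and Ccl27, not tested, had highest values of 4.12 and 3.04 CPM in any tendon.

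Among ligands known from the tissue itself, Cxcl14, a ligand made by epithelial cells and fibroblasts, was higher at 7D and was not called at 21D. Controls were at 55.1, 87.8 and 127 CPM and 7D 0 mg/kg tendons at 146, 203, 265, 288 and 528 CPM. The compound groups at 7D were at 246, 254, 375 and 409.8 CPM with 2 mg/kg and 118, 274 and 438 CPM with 6 mg/kg. A single 7D tendon, at 6 mg/kg, was below the highest control. At 21D the groups were at 88.3, 112, 133, 137 and 162 CPM with 0 mg/kg, 67.6, 78.5, 88.6, 88.8 and 176 CPM with 2 mg/kg and 80.9, 127, 128, 141 and 153 CPM with 6 mg/kg. The change was 1.67 ± 0.41, 1.84 ± 0.42 and 1.62 ± 0.44 at 7D in order of dose (adjusted p = 0.000836, 0.000490 and 0.00218) and was not called at 21D (0.49 ± 0.39 at 0 mg/kg, adjusted p = 0.270).

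Cxcl16, a membrane-bound ligand of Cxcr6, was at 11, 20.4 and 22 CPM in controls and 51.6, 57.5, 74.5, 77.9 and 101 CPM at 7D 0 mg/kg. At 7D it was at 48.1, 80.0, 87.4 and 87.9 CPM with 2 mg/kg and 60.0, 62.3 and 71.8 CPM with 6 mg/kg. Each repaired tendon was above each control at both times. The 21D tendons were at 41.2, 49.9, 52.4, 72.1 and 161 CPM with 0 mg/kg, 41.8, 53.0, 60.1, 107 and 113 CPM with 2 mg/kg and 44.4, 45.6, 52.1, 68.8 and 87.8 CPM with 6 mg/kg. The change was 2.02 ± 0.41 at 7D 0 mg/kg (adjusted p = 0.000125) and 2.07 ± 0.42 at 21D 0 mg/kg (adjusted p = 0.000126). Cxcl12, a ligand of Cxcr4 made by stromal cells, was higher by 1.16 ± 0.28 at 7D 0 mg/kg (adjusted p = 0.000753), and the other 5 changes were 0.66 to 0.99. Without control replicate 2, at 40.3 CPM beside 128.9 and 141.7 CPM in the other controls, its changes at 7D 2 and 6 mg/kg were 0.21 and 0.56 (adjusted p = 0.438 and 0.0542) and at 21D 0.54, 0.21 and 0.37 (adjusted p = 0.0445, 0.429 and 0.166), below 1.5-fold at 21D. Cx3cl1, the ligand of Cx3cr1, changed by -0.57 to 0.34 and was not called.

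Most of the receptors called were higher, and Ackr2, of the atypical class, was lower at 7D 0 mg/kg. Ccr1, a receptor of Ccl3, had control values of 0.408, 12.3 and 13.9 CPM and was not called (0.95 ± 0.79 at 7D 0 mg/kg, adjusted p = 0.286).

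Ccr7, which takes mature dendritic cells and naive T cells to lymph nodes, was at 0, 0.241 and 1.27 CPM in controls and 5.74, 6.89, 7.87, 9.75 and 10.5 CPM at 7D 0 mg/kg. At 7D it was at 1.48, 2.76, 4.48 and 6.93 CPM with 2 mg/kg and 8.18, 12.4 and 13.1 CPM with 6 mg/kg. All 7D tendons were above all controls. By 21D it was at 1.12, 1.73, 3.89, 4.06 and 4.94 CPM with 0 mg/kg, 0.937, 1.35, 2.25, 2.70 and 3.45 CPM with 2 mg/kg and 1.75, 1.84, 1.97, 1.99 and 4.52 CPM with 6 mg/kg, with an overlap at 0 and 2 mg/kg. The change was 3.91 ± 0.71, 2.87 ± 0.70 and 4.38 ± 0.75 at 7D (adjusted p = 2.97e-05, 0.000869 and 1.66e-05) and 2.54 ± 0.68, 1.98 ± 0.67 and 2.15 ± 0.68 at 21D (adjusted p = 0.00213, 0.0116 and 0.00760), in order of dose. The 21D 2 mg/kg call was lost without control replicate 3 (adjusted p = 0.0626) or 4 (0.0647), and the 21D calls were all lost with only the groups compared (0.0501, 0.0756 and 0.0644). Without control replicate 2 the change was 5.66, 4.62 and 6.14 at 7D and 4.30, 3.72 and 3.90 at 21D. Ccr6, not tested, had values of 0 to 0.361 CPM in controls and up to 2.63 CPM in repaired tendons.

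Xcr1, the receptor that marks cross-presenting dendritic cells, was at 0.189, 0.241 and 0.408 CPM in controls and 2.60, 5.49, 7.25, 8.48 and 8.56 CPM at 7D 0 mg/kg. The 7D tendons given compound were at 1.93, 2.69, 5.85 and 7.80 CPM with 2 mg/kg and 7.60, 8.33 and 14.2 CPM with 6 mg/kg. Each repaired tendon of either time was above the controls. At 21D the tendons were at 1.35, 1.58, 1.96, 2.23 and 3.62 CPM with 0 mg/kg, 0.718, 1.14, 1.70, 2.96 and 3.20 CPM with 2 mg/kg and 1.40, 3.75, 5.25, 5.39 and 5.82 CPM with 6 mg/kg. The change was 4.59 ± 0.68, 4.10 ± 0.69 and 5.23 ± 0.72 at 7D (adjusted p = 2.07e-06, 1.14e-05 and 8.68e-07) and 3.0 ± 0.66, 2.85 ± 0.66 and 4.01 ± 0.68 at 21D (adjusted p = 0.000363, 0.000512 and 1.66e-05), in order of dose.

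Cxcr3, carried by activated T cells, was at 0, 0.281 and 0.425 CPM in controls and 2.63, 3.46, 3.94, 6.20 and 6.24 CPM at 7D 0 mg/kg. With compound its 7D levels were 1.03, 3.24, 3.56 and 3.83 CPM at 2 mg/kg and 4.75, 6.06 and 8.82 CPM at 6 mg/kg. No 7D tendon overlapped the controls. At 21D the levels were 1.91, 2.00, 3.15, 3.41 and 4.12 CPM at 0 mg/kg, 0.389, 1.21, 3.03, 3.45 and 5.90 CPM at 2 mg/kg and 0.847, 2.15, 3.18, 3.69 and 3.79 CPM at 6 mg/kg, with 1 tendon at 2 mg/kg within the control range. The change was 4.09 ± 0.78 at 7D 0 mg/kg (adjusted p = 5.38e-05) and 3.47 ± 0.77 at 21D 0 mg/kg (adjusted p = 0.000376). The T cell markers in the table, 7 of 9 and among them Cd3e and Cd4, summed to 15.2 to 92.1 CPM in controls and 82.5 to 297.7 CPM at 7D. All 7 were higher at each 7D dose and 6 at each 21D dose, and their part in the level of Cxcr3 was not tested.

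Cx3cr1, which marks monocytes and macrophages, was 2.89 ± 0.74 higher at 7D 0 mg/kg and 4.03 ± 0.77 higher at 21D 0 mg/kg (adjusted p = 0.00125 and 7.50e-05), while its ligand Cx3cl1 was called in neither. The second was 3.10 (adjusted p = 0.000137) without 21D 0 mg/kg replicate 2. Cxcr4 was 1.77 ± 0.49 higher at 7D 0 mg/kg (adjusted p = 0.00247), or 2.67 without control replicate 4, and its 21D calls were each lost without control replicate 2 (adjusted p = 0.0567, 0.0511 and 0.131 in order of dose). At 21D 6 mg/kg the call was also lost without control replicate 3 (0.120) or repaired replicate 5 (0.0749). Cxcr2, the neutrophil receptor of the ELR-motif ligands, was called at 7D 6 mg/kg (2.01 ± 0.81, adjusted p = 0.0312). That call was lost without control replicate 3 (1.72, adjusted p = 0.105), control replicate 4 (1.47, adjusted p = 0.114) or 7D 6 mg/kg replicate 4 (1.42, adjusted p = 0.149). At 7D 0 mg/kg its values were 0.932, 1.26, 1.36, 2.43 and 2.80 CPM beside 0, 0.401 and 1.65 CPM in controls, and it was not called (1.29 ± 0.74, adjusted p = 0.120). Cxcr5, the receptor of Cxcl13 on B cells, changed by -0.71 to 0.63 and was not called. The B cell markers Cd79b, Ms4a1 and Jchain summed to 0.521 to 0.708 CPM in controls and 4.26 to 11.2 CPM at 7D 0 mg/kg, with Ms4a1 at 0 in every control tendon. Cxcr6, not tested, ranged from 0 to 0.189 CPM in controls and reached 3.52 CPM in repaired tendons.

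The atypical receptors differed among themselves. Ackr2, which binds inflammatory CC chemokines and removes them, was at 6.45, 27.5 and 38.9 CPM in controls and 4.03, 5.09, 8.55, 11.6 and 11.9 CPM at 7D 0 mg/kg. Its 7D levels with compound were 14.8, 16.5, 16.8 and 17.6 CPM at 2 mg/kg and 6.06, 8.95 and 13.4 CPM at 6 mg/kg. The highest control tendons were above all 7D tendons, but 1 control lay within the 7D 0 and 6 mg/kg ranges. At 21D it was at 11.7, 12.4, 16.1, 20.7 and 24.0 CPM with 0 mg/kg, 17.7, 22.2, 24.2, 28.9 and 29.5 CPM with 2 mg/kg and 10.8, 11, 17.1, 18.0 and 19.5 CPM with 6 mg/kg. Ackr2 was the member called lower, by -1.57 ± 0.38 at 7D 0 mg/kg (adjusted p = 0.000811) and -1.35 ± 0.45 at 7D 6 mg/kg (adjusted p = 0.00976), and was not called at 7D 2 mg/kg (-0.57 ± 0.41, adjusted p = 0.214) or at 21D. The 7D 6 mg/kg call was lost without control replicate 2 (-0.89, adjusted p = 0.0906), without 7D 6 mg/kg replicate 4 (-1.13, adjusted p = 0.0526) and with library size alone (-0.83, adjusted p = 0.106). Ackr3, which takes up Cxcl12, was called at 7D 2 mg/kg (1.06 ± 0.26, adjusted p = 0.000924) and at 21D with each dose (0.99 ± 0.25, 1.23 ± 0.25 and 1.14 ± 0.25, adjusted p = 0.00144, 0.000158 and 0.000402). At 7D 0 mg/kg it missed the threshold (0.52 ± 0.25, adjusted p = 0.0628). Ackr4, which takes up Ccl19 and Ccl21, changed by -0.14 to 0.89 and was not called.

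**Figure D3:**
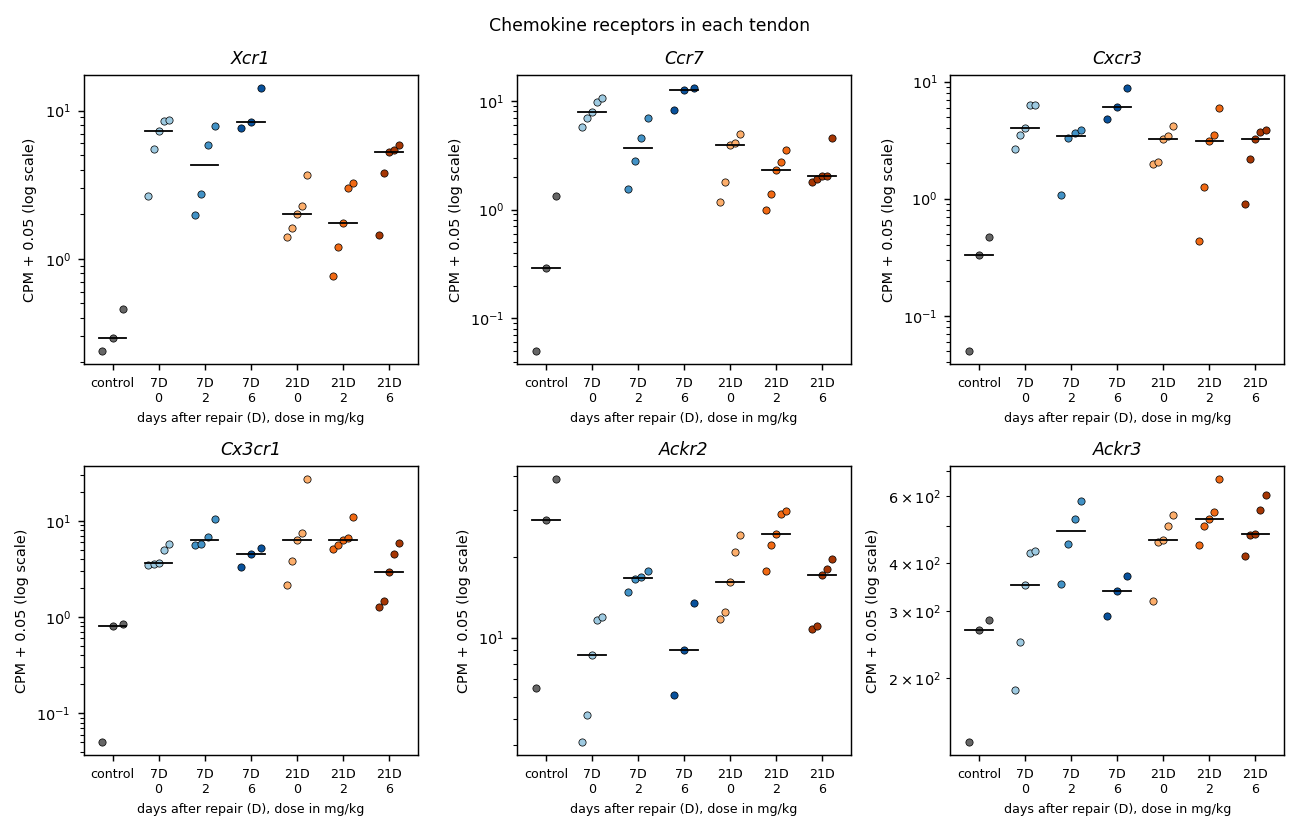
Levels of the receptors Xcr1, Ccr7, Cxcr3, Cx3cr1, Ackr2 and Ackr3 in each tendon by group, as CPM + 0.05 on a log axis, with a point for each tendon and a bar at the group's median. Xcr1 values of the 7D 0 mg/kg tendons, 2.60 to 8.56 CPM, lie above the controls, 0.189 to 0.408 CPM, whereas Ackr2 values are at or below those of most controls.

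**Figure D4:**
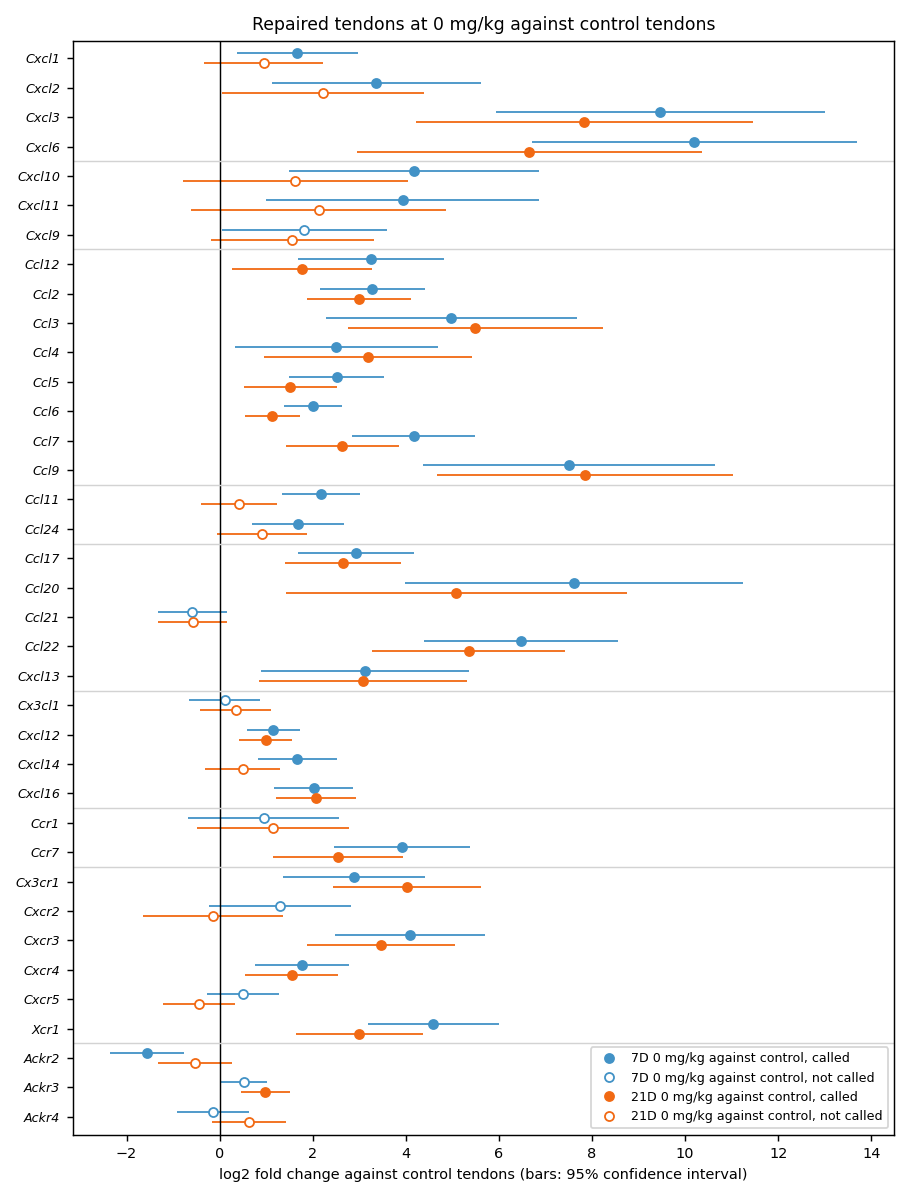
Log2 fold changes of 37 tested members at 7D 0 mg/kg (blue) and 21D 0 mg/kg (orange) against the control tendons, with bars for the 95% confidence interval, filled points for called genes, open points for the others and genes in order of role. Points of Cxcl6, Cxcl3, Ccl20 and Ccl22 rest on controls at or near 0 counts and are fitted values, not bounds, and Ackr2 is the member with its 7D 0 mg/kg point furthest below 0, at -1.57.

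Between the time points, the question was which members had fallen by 21D within a dose, at an adjusted p under 0.05. No member was higher at 21D. At 0 mg/kg 5 ligands (Ccl6, Ccl7, Ccl11, Cxcl6 and Cxcl14) and Xcr1 were lower, while 2.47% of all genes were lower and 2.88% higher. At 2 mg/kg Ccl6, Ccl7, Ccl11, Ccl24, Cxcl14 and Cxcr5 were lower, beside 5.98% of all genes lower and 7.09% higher. At 6 mg/kg Ccl5, Ccl6, Ccl7, Ccl11, Ccl12, Cxcl14, Ccr7 and Cxcr2 were lower, beside 4.55% lower and 8.54% higher. The calls at 2 mg/kg on ligands held without each tendon. At 0 mg/kg Ccl11 alone did so, and at 6 mg/kg Ccr7 alone. With muscle share as a covariate the calls of Ccl6 (adjusted p = 0.0662) and Xcr1 (0.0706) at 0 mg/kg, those of Ccl7 (0.0947), Ccl6 (0.120) and Ccl24 (0.221) at 2 mg/kg and all of those at 6 mg/kg were lost. At 2 and 6 mg/kg the muscle share did not overlap between the time points and cannot be told apart from time.

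Ccl6, Ccl7, Ccl11 and Cxcl14 were lower at 21D with every dose over all tendons. With only the groups compared, Ccl6 at 0 mg/kg (adjusted p = 0.0634) and Cxcl14 at 0 and 6 mg/kg (0.0663 and 0.0853) were lost, as was Ccl7 at 0 mg/kg with library size alone (0.0576). Ccl11 changed by -1.77 ± 0.32, -2.25 ± 0.33 and -1.49 ± 0.35 in order of dose (adjusted p = 0.00295, 0.000151 and 0.00674), and the last missed the threshold without 7D 6 mg/kg replicate 5 (-1.22, adjusted p = 0.0617). Ccl7 changed by -1.54 ± 0.46, -2.04 ± 0.48 and -1.52 ± 0.51 (adjusted p = 0.0480, 0.00578 and 0.0464), and no 21D tendon reached the lowest 7D tendon of its dose. Without single tendons its adjusted p rose to at most 0.116 at 0 mg/kg (without 7D 0 mg/kg replicate 1) and 0.255 at 6 mg/kg (without 7D 6 mg/kg replicate 5). Ccl6 changed by -0.87 ± 0.24, -1.16 ± 0.25 and -0.95 ± 0.27 (adjusted p = 0.0348, 0.00327 and 0.0212), again with no overlap, and without single tendons at most 0.0981 at 0 mg/kg (without 21D 0 mg/kg replicate 5) and 0.0993 at 6 mg/kg (without 7D 6 mg/kg replicate 1). Cxcl14 changed by -1.18 ± 0.34, -1.69 ± 0.35 and -1.14 ± 0.37 (adjusted p = 0.0402, 0.00237 and 0.0445), with adjusted p of up to 0.120 at 0 mg/kg (without 7D 0 mg/kg replicate 1) and 0.374 at 6 mg/kg (without 7D 6 mg/kg replicate 5). The other calls were weaker or rested on single doses. Xcr1 at 0 mg/kg (-1.59 ± 0.44, adjusted p = 0.0340) was lost without any of 6 tendons, the highest adjusted p being 0.0986 without 21D 0 mg/kg replicate 5. Cxcl6 at 0 mg/kg (-3.54 ± 0.79, adjusted p = 0.0121) was -2.23 (adjusted p = 0.0797) without 7D 0 mg/kg replicate 3.

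**Figure D5:**
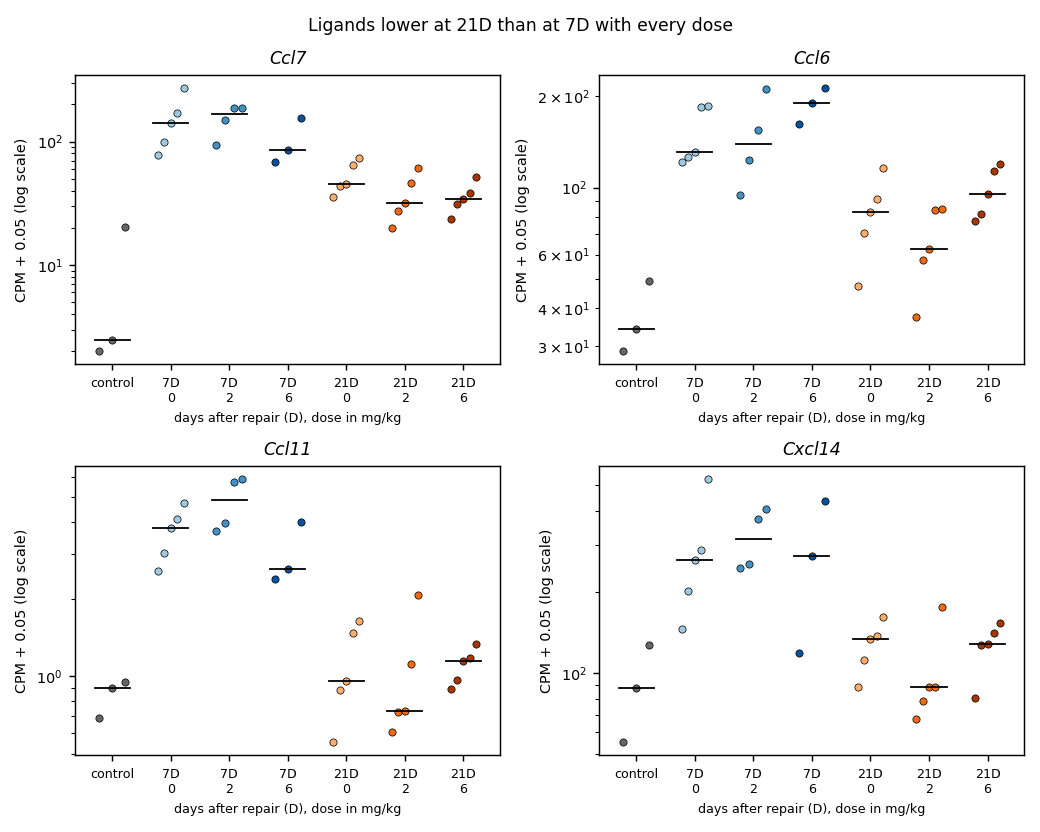
Levels of Ccl7, Ccl6, Ccl11 and Cxcl14 in each tendon by group, as CPM + 0.05 on a log axis, with a point for each tendon and a bar at the group's median. The 7D tendons lie above the 21D tendons of the same dose for Ccl7, Ccl6 and Ccl11, and for Cxcl14 at 2 mg/kg.

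The remaining calls between time points were of single doses. Ccl24 changed by -1.77 ± 0.42 at 2 mg/kg (adjusted p = 0.00549). Cxcr5 changed by -1.19 ± 0.34 at 2 mg/kg (adjusted p = 0.0216) and was lost without 7D 2 mg/kg replicate 4 (adjusted p = 0.0669) or 5 (0.0593) or 21D 2 mg/kg replicate 2 (0.0543). At 6 mg/kg Ccr7 changed by -2.23 ± 0.55 (adjusted p = 0.00867) and Cxcr2 by -3.0 ± 0.70 (adjusted p = 0.00609, and 0.0507 without 7D 6 mg/kg replicate 4). Ccl5 changed by -1.38 ± 0.42 (adjusted p = 0.0309) and Ccl12 by -1.90 ± 0.63 (adjusted p = 0.0454), and without single tendons their adjusted p reached 0.121 (without 7D 6 mg/kg replicate 4) and 0.126 (without the same tendon). Ccl2, Ccl3, Ccl9 and Cxcl16 were called at no dose, and their changes at 0 mg/kg were -0.29 ± 0.40, 0.52 ± 0.80, 0.34 ± 0.86 and 0.06 ± 0.33. Whether the change with time differed between doses was tested as an interaction, and 0 of 38 members passed it, beside 0.39% of all genes. No member had an unadjusted p under 0.05 there, and the smallest adjusted p was 0.780.

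The doses were compared within each time point, at an adjusted p under 0.05, and no member was called. Across the 3 doses at 7D 2.05% of all genes were called and at 21D 0%. For 2 against 0 mg/kg at 7D 0.908% of all genes were higher and 1.45% lower, and for 6 against 0 mg/kg 0% and 0.39%. At 21D both comparisons called 0% in each direction. Unadjusted p was under 0.05 for 6 and 5 members in the 7D and 21D tests over all doses, for 6 and 2 members at 7D with 2 and 6 mg/kg against 0 mg/kg and for 4 and 7 at 21D. DESeq2 called 0 members in each of these comparisons and in the interaction. The 95% intervals of the log2 difference from 0 mg/kg had median widths of 2.09 and 2.23 at 7D and 1.97 at both doses at 21D, on the log2 scale.

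At 7D the members with an unadjusted p under 0.05 for 2 against 0 mg/kg were Ackr2, Ackr3, Ackr4, Ccl22, Cxcl6 and Cxcl11, and for 6 against 0 mg/kg Cxcl10 and Cxcl11. Cxcl11 at 7D 2 mg/kg differed from 7D 0 mg/kg by -2.98 ± 1.17 (95% interval -5.38 to -0.58, adjusted p = 0.195), where 7D 0 mg/kg replicate 3 held 49.9 CPM and the other tendons of its group at most 2.63 CPM. Ackr2 differed by 0.99 ± 0.36 (95% interval 0.25 to 1.74, adjusted p = 0.156), with every 2 mg/kg tendon above every 0 mg/kg tendon. Ackr3 and Ackr4 differed by 0.54 ± 0.22 and 0.85 ± 0.35 (95% intervals 0.08 to 1.0 and 0.14 to 1.56, adjusted p = 0.224 and 0.22). Cxcl6 differed by -1.88 ± 0.80 (95% interval -3.51 to -0.24, adjusted p = 0.242). Ccl22 differed by -1.22 ± 0.58 (95% interval -2.41 to -0.04, adjusted p = 0.304). At 6 mg/kg Cxcl11 differed by -3.03 ± 1.31 (95% interval -5.73 to -0.34, adjusted p = 0.743) and Cxcl10 by -2.58 ± 1.16 (95% interval -4.97 to -0.20, adjusted p = 0.794). Cxcl12, whose p was above 0.05, had a narrow interval, and its difference was -0.50 ± 0.25 (95% interval -1.01 to 0.01) at 7D and -0.17 ± 0.23 (95% interval -0.65 to 0.31) for 6 against 0 mg/kg at 21D.

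At 21D the smallest p was that of Cxcl11 for 2 against 0 mg/kg, -3.93 ± 1.19 (95% interval -6.37 to -1.49, adjusted p = 0.397), and that of Cx3cr1 for 6 against 0 mg/kg, -1.55 ± 0.53 (95% interval -2.65 to -0.46, adjusted p = 0.741). Both genes had their highest 21D 0 mg/kg value in 1 tendon, 13.4 CPM for Cxcl11 and 27.2 CPM for Cx3cr1, in a group whose other tendons reached 0.812 and 7.45 CPM. Unadjusted p was also under 0.05 for Ccl20, Cxcl9 and Cx3cl1 at 2 mg/kg and for Cxcl11, Cxcl13, Ccl4, Ccl17, Cx3cl1 and Xcr1 at 6 mg/kg. Among these Xcr1 (1.01 ± 0.44, 95% interval 0.12 to 1.91, adjusted p = 0.759) and Ccl17 (0.90 ± 0.42, 95% interval 0.04 to 1.75, adjusted p = 0.759) were above 0 mg/kg and the others below it.

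At 7D the muscle share differed between 0 mg/kg and the other doses without overlap, so that muscle share and dose cannot be told apart there. With the log2 muscle share as a covariate over the repaired tendons, 5 members were called for 2 against 0 mg/kg: Cxcl11 (-5.14, adjusted p = 0.00670), Cxcl6 (-3.61, adjusted p = 0.00788), Ccl4 (-2.57, adjusted p = 0.0314), Cxcr4 (-1.16, adjusted p = 0.0333) and Cxcl16 (-0.97, adjusted p = 0.0458). For 6 against 0 mg/kg 4 were called: Cxcl11 (-5.19, adjusted p = 0.0211), Cxcl10 (-4.31, adjusted p = 0.0361), Cxcl16 (-1.18, adjusted p = 0.0373) and Cxcl6 (-3.16, adjusted p = 0.0435). The share of all genes called with this covariate was not determined. Replicate 3 of 7D 0 mg/kg and replicate 2 of 21D 0 mg/kg had the lowest muscle shares of their groups (0.169% and 0.0675%). They also held the highest values of these 4 genes in their groups, and this fit was not repeated without them. Between time points the same covariate called Ackr2 (1.16) and Cx3cr1 (1.24) higher at 21D with 0 mg/kg, and, among others, Cx3cr1 (2.21), Cxcr4 (1.40), Cxcl16 (1.44) and Ccl4 (3.22) with 2 mg/kg. With it no member was called between time points at 6 mg/kg. At 2 mg/kg the muscle share was 0.0129 to 0.0160% at 7D and 1.12 to 2.84% at 21D. At 6 mg/kg it was 0.0133 to 0.0159% and 0.308 to 8.39%. Muscle share and time therefore cannot be told apart at these 2 doses. With library size alone the share of higher genes among all genes called was 42.7% in place of 53.9% between times at 0 mg/kg, 50.9% in place of 65.3% at 6 mg/kg, and 28.0% in place of 38.5% for 2 against 0 mg/kg at 7D.

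Genes around the chemokines were taken from lists of the pathway. Of 30 tested signalling genes below the receptors, 22 were higher and 1 was lower at 7D 0 mg/kg, beside 29% and 27.6% of all genes. At 7D 2 and 6 mg/kg 22 and 22 were higher and 2 and 0 lower. At 21D 22, 22 and 17 were higher and 2, 3 and 2 lower in order of dose. Over all genes, 29.1% and 28.3% were higher at 7D 2 and 6 mg/kg and 26.5% and 27.4% lower. The all-gene shares at 21D were 25.4%, 26.7% and 23.9% higher and 25.2%, 27.3% and 24.6% lower. The median log2 fold change of the signalling genes at 7D 0 mg/kg was 1.05. Rgs1, a regulator that shortens G protein signalling in lymphocytes, changed by 3.88 ± 1.17 (adjusted p = 0.00472). Rac2, the GTPase that drives leukocyte migration, changed by 3.23 ± 0.63 (adjusted p = 7.16e-05). Gnai1, an inhibitory G protein subunit, was the lower one at -1.25 ± 0.51 (adjusted p = 0.0304).

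Among 9 related genes tested outside the naming rule, 6 were higher and 1 was lower at 7D 0 mg/kg, beside 29% and 27.6% of all genes. Pf4, a platelet chemokine, changed by 1.68 ± 0.62 (adjusted p = 0.0194), and Rarres2, which encodes chemerin, by 1.57 ± 0.23 (adjusted p = 1.53e-06). Cmklr1, the chemerin receptor, changed by 1.10 ± 0.25 (adjusted p = 0.000342) and Cd74, a receptor of Mif, by 1.90 ± 0.33 (adjusted p = 1.86e-05). Dpp4, a protease that trims chemokines, changed by 1.16 ± 0.36 (adjusted p = 0.00595), and Cklf by 1.73 ± 0.26 (adjusted p = 2.77e-06). Gpr1, another chemerin receptor, was lower at 7D 0 mg/kg, at -2.03 ± 0.68 (adjusted p = 0.0100), and was the pathway gene called between doses, higher at 7D 2 than at 7D 0 mg/kg by 2.55 ± 0.65 (adjusted p = 0.0327). Mif and Ccrl2 were not called. In the other comparisons with control tendons 6 of the 9 were higher at 7D 2 and 6 mg/kg and 5 at each 21D dose. Of all genes, 23.9 to 29.1% were higher in these comparisons.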

How the data were processed

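RNA from 30 rat plantaris tendons was measured by sequencing. The authors used fastp for adapter trimming of single-end reads and STAR for mapping to rn6 and for counting in Ensembl exons, and deposited raw counts per gene. The handling of reads shared by paralogs and of strand is not given in the sources used here. The deposited comparison table (log2 fold changes, p-values and false discovery rates of the authors) was not used except for chromosomes. The labels give 3 tendons at 7D 6 mg/kg, where the removals in the methods would leave 4, and the labels were followed.

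Counts were tested with edgeR 4.0.16 in R 4.3.3 (limma 3.58.1): TMM scaling, a filter on genes that kept those averaging 3 CPM or more in any group (12558 kept, 566 removed, of 13124), glmQLFit and glmQLFTest with 1 mean per group over all 30 tendons, and Benjamini-Hochberg adjustment over the genes kept. The SE of a fold change is its size over the square root of F, and intervals are at 95%. Calls needed an adjusted p under 0.05 and, against control tendons, at least 1.5-fold. The floor was 3 counts per library. A bound is a group's mean CPM over the mean floor of the 3 control libraries, and it covers counting error only. Depth was 12405741 to 49909374 counts. No 2 libraries of a group agreed within sampling noise (lowest chi-square per gene 30.6). The fit was also run on simulated counts for 7D 0 mg/kg against control over 12558 genes. It called 75 of 100 genes changed by 1 on the log2 scale and 88 of 100 changed by 2, and 2.98% of calls were false. In the tendons many more genes were called in this comparison, 29% higher and 27.6% lower. Whether the rates from simulated counts hold with so many genes called, or with control tendons near 0 counts, was not tested.

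The members, role lists, marker lists and alternatives were chosen with earlier results of these data known. A few genes are not reported here: counts of members include them, and other lists leave them out. Values in every group are given for members called between doses (none), in each role list for the 2 members that rose most and the 1 that fell most among those called at 7D 0 mg/kg, for members called in opposite directions at the 2 times (none) and for those called between time points at all 3 doses. Others are given by counts and ranges, and those singled out beyond this rule were chosen after their values were seen. Alternatives were RLE scaling, library size only, removal of muscle genes, no filter or a filter at 10 CPM, other fold thresholds, only the groups compared, the replicate number as a block, muscle share as a covariate, DESeq2 1.42.0 and leaving out each tendon. Promoters were read from the RefSeq table (GRCr8), matched by symbol. Figures were drawn with matplotlib 3.10.9.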

Additional observations from a re-analysis of the deposited data

Results flagged for a closer look

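Among the 18 members with values given in full, 90 groups of 4 or 5 tendons were examined for a tendon that stood apart from the others by Dixon's criterion. For normally distributed values chance alone meets it in about 1 group in 20. The criterion was applied to CPM without a log, where skew toward high values can raise that rate. It was met in 14 groups and 8 tendons, each time by the highest tendon. Replicate 3 of 7D 0 mg/kg held 123.6 CPM of Cxcl10 (3.19 to 4.74 in the others), 49.94 CPM of Cxcl11 (0.695 to 2.63) and 83.26 CPM of Cxcl6 (5.57 to 15.1). Replicate 1 of the same group held 20.58 CPM of Ccl20 (1.43 to 5.81) and 397.4 CPM of Ccl9 (25.6 to 125.4). Replicate 2 of 21D 0 mg/kg held 15.61 CPM of Cxcl10 (1.71 to 2.87), 13.44 CPM of Cxcl11 (0.416 to 0.812) and 161.4 CPM of Cxcl16 (41.2 to 72.1). Replicate 5 of 21D 6 mg/kg held 29.25 CPM of Ccl3 (2.58 to 6.59) and 302.1 CPM of Ccl9 (29.4 to 58.2), and replicate 3 of that group 4.516 CPM of Ccr7 (1.75 to 1.99). In 21D 2 mg/kg replicate 2 held 9.428 CPM of Cxcl10 (0.730 to 3.24) and replicate 3 held 175.5 CPM of Cxcl14 (67.6 to 88.8). In 7D 2 mg/kg replicate 5 held 8.994 CPM of Cxcl6 (5.86 to 6.01). The cause of these values was not tested.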

How the results depend on the processing

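Of 288 counts of called members under alternatives, 265 stayed within 1.5 times the count reported and 23 did not. A filter at 10 CPM gave 15 ligands at 7D 0 mg/kg and 5 receptors at 7D 6 mg/kg against control, by testing fewer genes. Between time points at 0 mg/kg, ligand calls were 2 with only the groups compared, 8 with DESeq2 and 2 (without 7D 0 mg/kg replicate 1) to 6 when single tendons were left out, and receptor calls 4 with DESeq2, 2 with muscle share as a covariate and 0 (without 7D 0 mg/kg replicate 3) to 1 without single tendons. At 2 mg/kg ligand calls were 9 with only the groups compared, and receptor calls were 0 at 10 CPM, 2 with only the groups compared, 2 with DESeq2, 4 with the covariate and 0 (without 7D 2 mg/kg replicate 4) to 1 without single tendons. At 6 mg/kg ligand calls were 0 with the covariate and 0 (without 7D 6 mg/kg replicate 5) to 4 without single tendons, and receptor calls 1 at 10 CPM, 0 with the covariate and 1 (without 7D 6 mg/kg replicate 4) to 2. With the covariate 5 members were called across doses at 7D, 5 for 2 against 0 mg/kg, 4 for 6 against 0 mg/kg and 1 (Cxcl6) in the interaction. The share of all genes called with it was not determined. Muscle share could not be told apart from dose at 7D, or from time at 2 and 6 mg/kg. Cxcl11 at 21D 0 mg/kg ranged from -0.11 (without replicate 2) to 2.62 without single tendons. The cause of these shifts was not tested. Replicate numbers did not pair the tendons (median correlation of deviations 0.00685 over 76 pairs with the same number and 0.00878 over 307 other pairs). With a replicate block the ligand calls against control were 22, 21 and 19 at 7D and 16, 15 and 13 at 21D, and with it Cxcl11 was lost at 7D 0 mg/kg (3.33, adjusted p = 0.0631), Cxcr2 at 7D 6 mg/kg (0.0550), Ccl20 at 21D 6 mg/kg (0.0660) and Cxcl14 between times at 0 and 6 mg/kg (0.0520 and 0.0962). The block added Cxcl1 at 7D 2 mg/kg (0.0262), Ccl12 at 21D 6 mg/kg (0.0486), Cxcl6 between times at 6 mg/kg (0.0482) and Ccl21, called lower, at 21D 2 mg/kg (-0.70, 0.0116). With 3 control tendons and few counts in them, folds of the low members are imprecise, and differences between doses within their intervals were not detectable here.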
